A study of Mus musculus with 6 samples.

Results

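The genes described are the 9 that encode subunits of the COPI coat in mouse: Copa, Copb1, Copb2, Cope, Copg1, Copg2, Copz1, Copz2 and Arcn1. They were taken by symbol from a table of 43432 gene IDs, and each symbol matched 1 ID. RNA was sequenced from medullary thymic epithelial cells (mTEC), the stromal cells of the thymus that display tissue antigens to developing T cells, of C57BL/6 mice killed 4 weeks after birth. The MUT group (3 libraries) was heterozygous for the E241K allele of Copa, labelled CopaE241K/+, and the WT group (3 libraries) was Copa+/+; both genotypes came from 1 strain, and no other allele or agent is given. The labels name no Cre or promoter that would restrict the allele to a cell type. A gene count pools both alleles, so the level of Copa checks neither the genotype nor the ratio of the alleles. Whether a library came from 1 animal or from a pool is not given, so the error behind each p-value is library to library and may be technical in part.

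COPI is a protein coat that buds vesicles from the Golgi and returns escaped proteins and cargo receptors to the endoplasmic reticulum. Its subunits join as one complex, coatomer, which the GTPase ARF1 recruits to the membrane whole. An outer, cage-like B subcomplex holds alpha-COP (Copa), beta'-COP (Copb2) and epsilon-COP (Cope), and an inner, adaptor-like F subcomplex holds beta-COP (Copb1), delta-COP (Arcn1), gamma-COP and zeta-COP. Gamma-COP and zeta-COP are each encoded by a pair of paralogues, Copg1 with Copg2 and Copz1 with Copz2, and a coatomer carries 1 of each pair. Alpha-COP and beta'-COP bear WD40 propellers that grip the dilysine tails of cargo, and in humans, changes in the propeller of COPA cause an inflammatory lung and joint disease.

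The zeta paralogues also share a feature outside their coding sequence. Each hosts a microRNA on its own strand with no overlap with its exons: Mir148b lies in Copz1 and Mir152 in Copz2. Their mature 3p forms, from RefSeq (GRCm38.p6), have the same seed, bases 2 to 8, shown in capitals.
mmu-miR-148b-3p, chr15:103285185-103285206: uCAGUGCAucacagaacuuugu
mmu-miR-152-3p, chr11:96850439-96850459: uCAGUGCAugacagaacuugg
From miR-148b-3p to miR-152-3p the substitutions, counted from the 5′ end, were C10G and U20G, and miR-148b-3p is 22 bases long against 21 for miR-152-3p. Both microRNA genes had 0 counts in all 6 libraries, so the hosts are measured here and the microRNAs are not.

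Promoters were compared because the subunits are made for 1 complex. RefSeq sequences (GRCm38.p6) running from 250 bases before a gene's start to 50 after it were given for 8 of the 9 genes, Arcn1 being the other one. The letters CCACGT, the core of elements bound by transcription factors of the unfolded protein response, stood on either strand in 5 of these 8 promoters (Copb1, Copb2, Copg1, Copz1 and Copz2) and in 8.31% of all 32851 promoters of that length. The longer TGACGTGG, which contains the reverse complement of that core, stood in 2 of the 8, Copb1 and Copb2, and in 0.676% of all. The full endoplasmic reticulum stress element, ERSE, in which CCAAT and CCACG stand apart, was found in 0 of the 8 and in 0.119% of all. The other strings searched were CCAAT (2 of the 8, 37.4% of all), TGACGTCA (1 of the 8, 1.79%) and a motif like that of NRF1 (2 of the 8, 2.12%). The motifs were chosen after these sequences had been read, and a match is a string of letters rather than a shown binding site. The 32851 promoters were not matched to these 8 in base composition, and its part in the counts was not tested. The last 150 bases of 4 of the windows are shown, 100 before the start and 50 after it, with CCACGT or its reverse complement in capitals: Copb1 and Copb2 hold the longer motif, and the gamma paralogues differ in that Copg1 holds the core and Copg2 does not.
Copb1, chr7:114254631-114254780, minus strand: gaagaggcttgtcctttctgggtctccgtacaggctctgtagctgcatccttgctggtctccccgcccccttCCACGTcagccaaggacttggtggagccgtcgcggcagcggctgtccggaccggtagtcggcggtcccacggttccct
Copb2, chr9:98563631-98563780, plus strand: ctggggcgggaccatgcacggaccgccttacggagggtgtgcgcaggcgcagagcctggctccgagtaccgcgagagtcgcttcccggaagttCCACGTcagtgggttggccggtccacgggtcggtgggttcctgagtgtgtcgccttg
Copg1, chr6:87887840-87887989, plus strand: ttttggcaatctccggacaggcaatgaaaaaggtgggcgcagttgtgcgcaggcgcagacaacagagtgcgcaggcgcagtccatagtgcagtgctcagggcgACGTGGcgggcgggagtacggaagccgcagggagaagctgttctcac
Copg2, chr6:30896745-30896894, minus strand: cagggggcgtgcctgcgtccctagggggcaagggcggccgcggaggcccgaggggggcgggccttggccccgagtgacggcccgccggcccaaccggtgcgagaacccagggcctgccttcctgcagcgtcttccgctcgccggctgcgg

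Library totals ran from 19934513 to 23366238 counts. All 10 listed markers of mTEC were counted in every library. Aire, the regulator of antigen display that defines mature mTEC, lay between 929 and 1563 CPM in MUT and between 954 and 1379 CPM in WT. CPM is a count divided by its library's size, scaled by TMM, an edgeR factor that sets most genes level. Summed thymocyte markers ranged from 137 to 1031 CPM in MUT, with 1031 in MUT library 2, and from 239 to 557 CPM in WT. Ptcra was at 0 in part of the libraries, and the other 8 were not. Ptprc led the sum of MUT library 2, at 384 CPM. Summed B cell markers were also highest in MUT library 2, at 73.2 CPM, while those of macrophages and dendritic cells were highest in WT library 2, at 852 CPM. Summed tuft cell markers ranged from 164 to 255 CPM in MUT and from 291 to 816 CPM in WT, with 816 in WT library 1, and all 5 were counted in every library. Genes with a count numbered 17174 in WT library 1, the fewest.

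No COPI subunit gene differed between MUT and WT beyond the spread of the libraries. Over 17172 genes tested by edgeR's quasi-likelihood test, 0 of the 9 members passed an adjusted p of 0.05, each at an adjusted p of 0.999875, where 0% of all genes did. At an unadjusted p under 0.05, 0 members stood beside 3.48% of all genes, and in DESeq2 0 members were called beside 0.621%. MUT and WT libraries overlapped for all 9, while 9.35% of all genes did not overlap. Fitted log2 fold changes were below 0 for 8 members and above 0 for Cope, with a median of -0.25, against a median of -0.01 and 50.6% below 0 over all genes. The members' median was -0.42 without WT replicate 2 and -0.19 without WT replicate 1. All members passed the filter on low counts with at least 413 counts in each library, and their mean levels lay between the 68.6th and the 98.6th percentile of tested genes. Standard errors ran from 0.34 to 0.65, against a median of 1.03 for all genes. In bulk RNA, fewer cells of a type and less RNA per cell cannot be told apart.

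**Figure D1:**
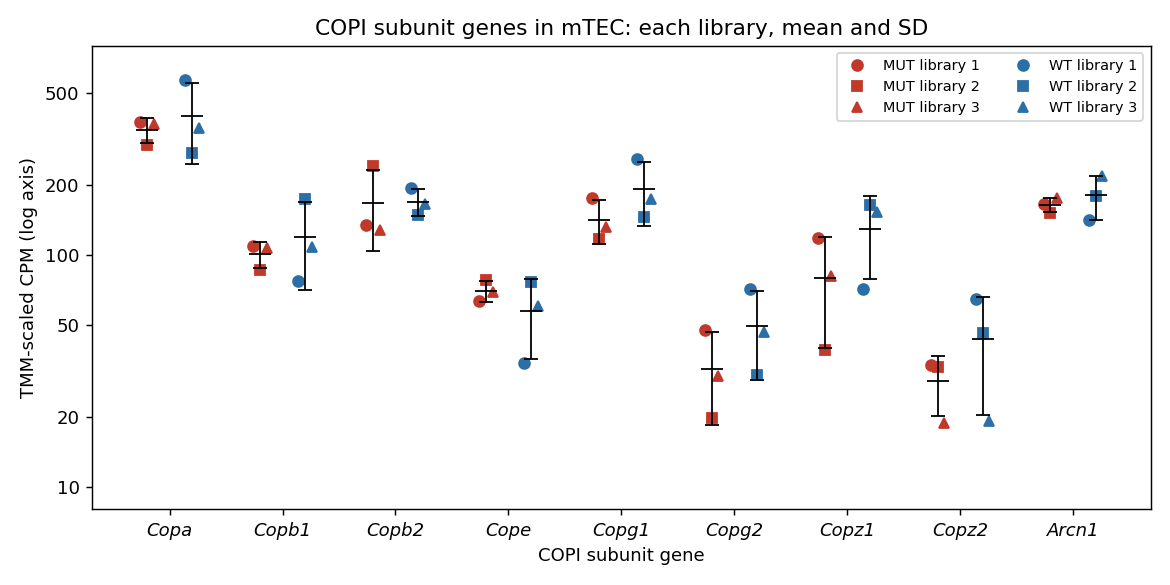
TMM-scaled CPM (log axis) of the 9 COPI subunit genes in each of 3 MUT (red) and 3 WT (blue) libraries, with bars for mean and SD. The genotypes overlap for every gene, Copa is the highest in CPM, and Copg2 and Copz2 are the lowest by mean.

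Among B subcomplex genes, Copa, the mutated gene (ENSMUSG00000026553, GRCm38 chr1:172082529-172122330), measured 377, 297 and 368 CPM in MUT libraries 1, 2 and 3, against 568, 277 and 353 CPM in WT libraries 1, 2 and 3. All MUT values lay inside the WT range, whose top was set by WT library 1. Its log2 fold change was -0.20 (SE 0.34, 95% interval -0.93 to 0.53), and 0.14 without WT replicate 1. An interval that stays above -1 leaves out a halving at this confidence, and one that stays below 1 a doubling. The exons of Copa share 195 bases with Ncstn and 708 with Gm37756, both on the opposite strand, and the strand setting of the counts is not given in the sources used here. Ncstn, a gamma-secretase subunit gene, had 86.7 ± 26.9 CPM in MUT and 81.0 ± 17.5 CPM in WT (SD, n = 3 each), and Gm37756 had at most 88 counts in any library.

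Copb2, the other propeller subunit (ENSMUSG00000032458, chr9:98563721-98588382), measured 134, 243 and 129 CPM in MUT, against 196, 149 and 166 CPM in WT. The MUT libraries lay on both sides of WT: library 2 above all 3 WT libraries, and the other two below. The log2 fold change was -0.02 (SE 0.37, interval -0.83 to 0.80), and it turned to 0.09 without WT replicate 1, 0.12 without MUT replicate 1, 0.14 without MUT replicate 3 and 0.04 with upper-quartile scaling. Cope, whose product steadies alpha-COP (ENSMUSG00000055681, chr8:70302518-70312993), measured 63.1, 78.03 and 69.4 CPM in MUT, against 34.2, 76.9 and 60.25 CPM in WT. Its log2 fold change was 0.30 (SE 0.48, interval -0.76 to 1.35). WT library 1 was the low value, and leaving it out gave 0.03.

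Among F subcomplex genes with no paralogue, Copb1 (ENSMUSG00000030754, chr7:114215559-114254711) measured 109, 86.4 and 107 CPM in MUT, against 77.3, 175 and 109 CPM in WT. The MUT libraries lay close together inside the WT range, which library 2 set at the top. Its log2 fold change was -0.25 (SE 0.42, interval -1.16 to 0.65), and 0.11 without WT replicate 2. Arcn1, the delta-COP gene (ENSMUSG00000032096, chr9:44741564-44767845), was the steadiest member, at 167, 152 and 176 CPM in MUT, against 142, 181 and 219.8 CPM in WT. Its highest library exceeded its lowest 1.54-fold, the smallest such ratio among the 9, and its log2 fold change was -0.13 (SE 0.34, interval -0.87 to 0.60), or 0.03 without WT replicate 3. Stretches of Arcn1 transcripts also occur in the processed pseudogenes Gm8750 and Gm8752, which had at most 14 counts in a library.

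The gamma genes varied together across libraries. Copg1 (ENSMUSG00000030058, chr6:87887814-87913595) measured 177, 117 and 133 CPM in MUT, against 261, 146 and 174 CPM in WT. Copg2 (ENSMUSG00000025607, chr6:30747554-30896794) measured 47.5, 19.8 and 29.96 CPM in MUT, against 71.6, 30.5 and 46.6 CPM in WT. Both genes were highest in WT library 1 and lowest in MUT library 2, and for each, MUT libraries 2 and 3 lay below all WT libraries while MUT library 1 did not. The exons of Copg1 share 941 bases with the antisense gene Gm26636, which had 0 counts in every library. The log2 fold changes were -0.44 (SE 0.37, interval -1.25 to 0.36) for Copg1 and -0.61 (SE 0.60, interval -1.93 to 0.70) for Copg2. Without WT replicate 1 they were -0.17 and -0.25, and without MUT replicate 1 they were -0.63 and -0.99. The 3′ end of Copg2 overlaps that of Mest, an imprinted gene on the opposite strand, over 912 bases or 17.8% of the exon length of Copg2. Mest had 7, 121 and 103 counts in MUT, against 470, 412 and 149 counts in WT, and the part of such reads in the counts of Copg2 was not tested.

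The zeta genes did not vary together. Copz1 (ENSMUSG00000060992, chr15:103272714-103299868) measured 118, 38.9 and 81.3 CPM in MUT, against 71.7, 164 and 153 CPM in WT, and its highest library exceeded its lowest 4.23-fold, the widest ratio of the 9. Copz2 (ENSMUSG00000018672, chr11:96849870-96861203) measured 33.6, 33.01 and 18.9 CPM in MUT, against 64.8, 45.96 and 19.3 CPM in WT. Library 1 of WT was the lowest WT library for Copz1 and the highest for Copz2, and library 3 of each genotype was the lowest of its group for Copz2. The log2 fold changes were -0.71 (SE 0.50, interval -1.80 to 0.38) for Copz1 and -0.61 (SE 0.65, interval -2.02 to 0.80) for Copz2. That of Copz1 was -0.38 without MUT replicate 2 and -1.11 without MUT replicate 1, and that of Copz2 was -0.19 without WT replicate 1 and -0.96 without WT replicate 3. Copz1 had the smallest unadjusted p of the members, 0.18, in edgeR's fit over all genes.

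**Figure D2:**
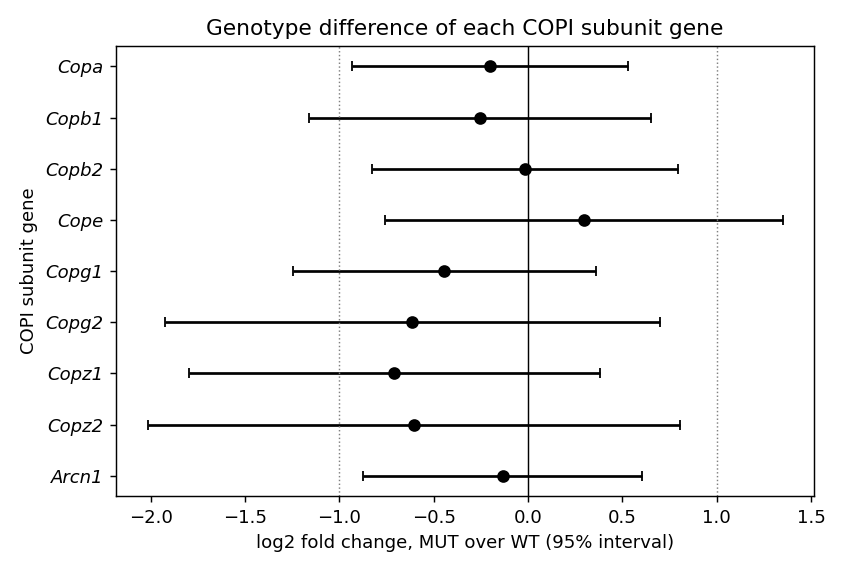
Log2 fold change of each COPI subunit gene, MUT over WT, as a point with its 95% interval from edgeR's fit over all genes, with dotted lines at -1 and 1. All 9 intervals cross 0, and 4 (Copa, Copb2, Cope and Arcn1) stay above -1.

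Every interval in the plot of fold changes crossed 0, so neither a change nor its absence was shown. In this fit the intervals of Copa, Copb2, Cope and Arcn1 left out a halving, and those of all members but Cope left out a doubling. These bounds depended on the fit and the libraries. Over 14 other fits, a halving lay inside the interval in 6 for Copa (DESeq2 with and without the replicate number, and without WT replicate 2, WT replicate 3, MUT replicate 1 or MUT replicate 3), in 4 each for Copb2 and Arcn1 and in 2 for Cope. A doubling lay inside in 1 fit for Copb1, 2 for Copb2, 3 each for Copg2 and Copz2 and all 14 for Cope, and in 0 for Copa, Copg1, Copz1 and Arcn1.

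The balance of paralogues was measured as a share within a library, which does not depend on library size. No 2 of the 9 genes shared an identical 50-base stretch of annotated transcript (0 of 36 pairs). A read of that length could thus not match both paralogues without a mismatch. Matches with mismatches were not checked, and how reads were counted is not given. Per kb of exon union, the length covered by all annotated exons of a gene, Copg2 made up 36.5%, 26.6% and 32.7% of the gamma total in MUT, against 37.1%, 31.0% and 36.5% in WT. The lowest share was in MUT library 2, and the genotypes overlapped. The means were 31.9% ± 5.01 in MUT and 34.9% ± 3.36 in WT (SD, n = 3 each), a difference of -2.93 percentage points with a two-sided exact permutation p of 0.6, where the smallest p that 6 libraries allow is 0.1. The difference was -0.26 points without MUT replicate 2 and -5.23 points without MUT replicate 1. Scaled by the longest protein-coding transcript instead, the shares ran from 15.0% to 22.3%, with 11011 bases in the exon union of Copg1 and 4140 in its longest coding transcript. Of the 10 annotated Copg1 transcripts, 6 are typed as retained introns.

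Copz2 made up 32.0%, 58.5% and 27.8% of the zeta total per kb of exon union in MUT, against 59.98%, 31.7% and 17.3% in WT. One library of each genotype, MUT library 2 and WT library 1, had more Copz2 than Copz1 on this scale, and the other 4 had less. The means were 39.4% ± 16.6 in MUT and 36.3% ± 21.7 in WT (SD, n = 3 each), with an exact permutation p of 0.9. The spread within a genotype exceeded the difference of 3.12 points, which turned to -6.40 points without WT replicate 3 and to -6.40 without MUT replicate 2. Adjusted by Benjamini-Hochberg over the 2 paralogue pairs, both exact permutation p-values were 0.9.

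**Figure D3:**
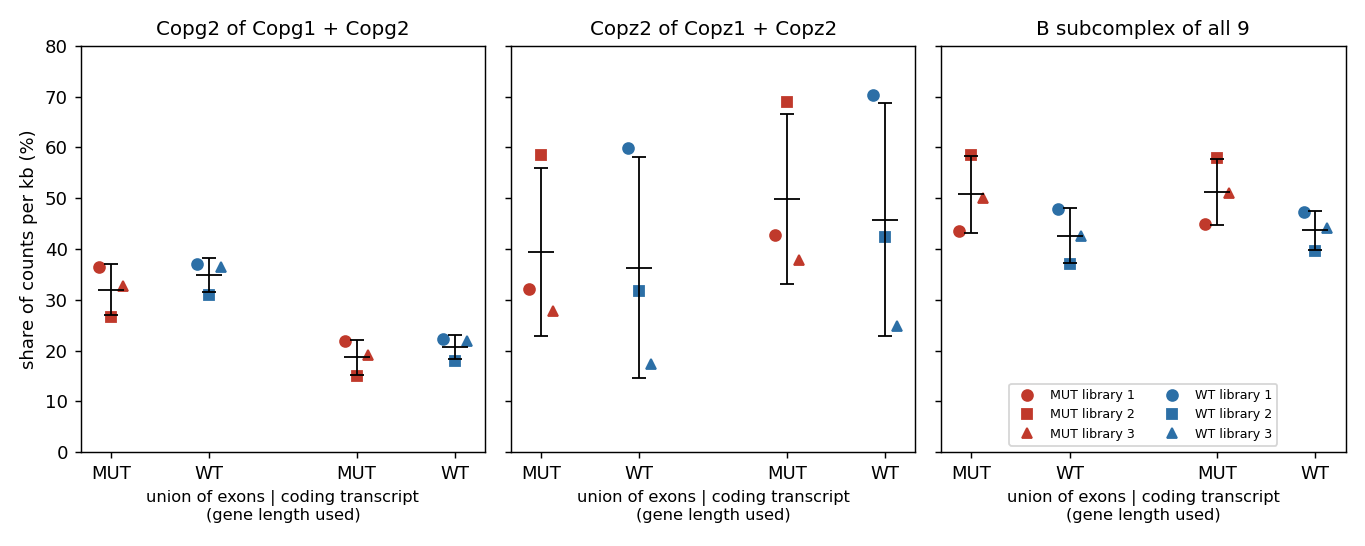
Shares of counts per kb, in percent, for Copg2 within the gamma pair, Copz2 within the zeta pair and the B subcomplex within all 9 genes, in MUT (red) and WT (blue) libraries with mean and SD, using the exon union (left of each panel) or the longest coding transcript (right). The gamma share spans 26.6% to 37.1% with the exon union, and the zeta share 17.3% to 59.98%.

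The B subcomplex genes made up 43.6%, 58.6% and 50.1% of the summed counts per kb in MUT, against 47.95%, 37.1% and 42.6% in WT. With the exon union, MUT libraries 2 and 3 lay above all WT libraries and MUT library 1 lay within WT, so the groups overlapped. The difference in means was 8.17 points, with a two-sided exact permutation p of 0.2. It was 4.26 points without MUT replicate 2 and 11.8 points without MUT replicate 1. The place of MUT library 3 turned with the length. With the longest transcript it stood at 48.05% against 48.00% in WT library 1. With no length it stood at 50.9%, below the 53.7% of WT library 1, and the exact permutation p was 0.4. In MUT library 2, Copb2 was at its highest and Copg1, Copg2 and Copz1 were at their lowest.

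Summed over the 9 genes, COPI subunits took 1227, 1066 and 1112 CPM in MUT, against 1487, 1246 and 1301 CPM in WT. All MUT libraries lay below all WT libraries with TMM scaling and with DESeq2 size factors, but the groups overlapped with upper-quartile scaling and with CPM on the total counts alone. On that last scale the sums were 1226, 972 and 1317 in MUT, against 1270.05, 1157 and 1483 in WT. The TMM difference in means was -209.7 CPM, and -138.7 CPM without WT replicate 1. The two-sided exact permutation p was 0.1 with TMM and with DESeq2 size factors, the smallest that 6 libraries allow. It was 0.2 with upper-quartile scaling and 0.5 on the total counts. A sum is led by its most abundant member, here Copa, at 348 CPM on average in MUT and 400 in WT. Copg1 averaged 142 CPM in MUT and 194 in WT, and Copz1 79.5 and 130, while Cope alone was higher in MUT. The summed tuft cell markers of all MUT libraries also lay below those of all WT libraries, while summed mTEC markers overlapped, at 9741 to 11449 CPM in MUT and 10242 to 12877 CPM in WT. The mTEC sum is led by H2-Aa, which lay between 5557 CPM (WT library 1) and 9619 CPM (WT library 2), so its overlap says little about the other markers. Of the 5 tuft cell markers 1, Dclk1, did not overlap between genotypes, and of the 10 mTEC markers 1, Epcam, did not, beside 9.35% of all genes. Both were lower in MUT. Adgre1 (1 of 8 markers of macrophages and dendritic cells), Tek (1 of 4 of endothelium) and Hba-a1 (1 of 4 of erythroid cells) also did not overlap and were lower in MUT. The lists of cortical thymic epithelium (6 markers), thymocytes (9), B cells (4) and fibroblasts (5) had 0 without overlap. These counts too stand beside the 9.35% of all genes, and are not read as a loss of a cell type. No listed marker was higher in MUT without overlap. The part of cell composition in the sum was not tested.

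Levels of different genes were compared per kb. With the exon union, Copa stood highest at 39.6 ± 10.97 CPM per kb over the 6 libraries (mean ± SD), followed by Copz1 (28.6 CPM per kb), Copb2 (26.7), Copb1 (19.8), Cope (18.98), Copz2 (16.3), Copg1 (15.3), Arcn1 (11.6) and, last, Copg2. Of the 8 neighbouring pairs in this order, Copg1 over Arcn1 alone kept its order in all 6 libraries. Its mean log2 difference was 0.36 with an SD of 0.50, against 0.64 with an SD of 0.70 for Arcn1 over Copg2. A kept order therefore does not mark this pair as farther apart than the others. The ends of the order were not fixed either: Copa was the highest member in 3 of 6 libraries, Copz1 in 2 and Copb2 in 1. Copg2 was the lowest in 4 of 6. With the longest protein-coding transcript as the length, Copa was again first at 80.8 ± 22.4 CPM per kb, and Copg2 last at 10.3 ± 4.64 CPM per kb. There Copa was the highest member in 4 of 6 libraries and Copg2 the lowest in 6 of 6. Copb1 lay above Copg2 in all 6, while no other neighbouring pair kept its order throughout. The level of Arcn1 depended on the length used, with 14915 bases in its exon union and 4072 in its longest coding transcript. It reached 42.5 CPM per kb on the coding scale, close to Copz1 (42.9) and Copg1 (40.6). On that scale Arcn1 ranked above Copg1, and did so in 4 of the 6 libraries, so the order of these genes turned with the length.

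**Figure D4:**
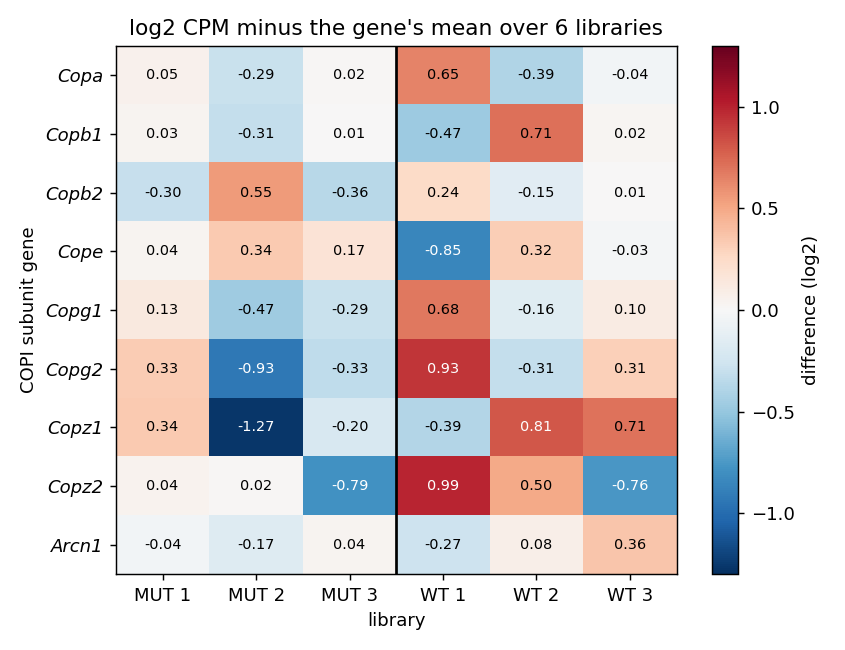
Log2 CPM of each COPI subunit gene minus its own mean over the 6 libraries, with MUT libraries left of the line and WT libraries right of it; red is above the gene's mean and blue below. WT library 1 is above the mean for Copa, Copb2, Copg1, Copg2 and Copz2 and below it for the other 4 genes.

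Members diverged within libraries. WT library 1 held the highest value of 4 members (Copa, Copg1, Copg2 and Copz2) and the lowest value of 3 (Copb1, Cope and Arcn1). MUT library 2 held the highest value of Copb2 and Cope and the lowest of Copg1, Copg2 and Copz1. Relative to its own mean, Copg2 stood 0.93 higher in WT library 1 on the log2 scale, and Cope stood at -0.85. MUT library 1 held no highest and no lowest value. WT library 1 and MUT library 2 are also noted above, the first for its tuft markers and the second for its thymocyte and B cell markers. The part of these markers' cells in the divergence was not tested.

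Genes that work with the COPI coat, and genes of the COPII and AP adaptor coats, were described from lists. None of the lists had a member past edgeR's adjusted p of 0.05 in either direction. DESeq2 and limma-voom called 0 of these genes as well. At an unadjusted p under 0.05 in edgeR's test stood Arf3 and Kdelr3, 2 of 66 genes tested over all the lists, beside 3.48% of all genes. They were 1 of 11 ARF genes and regulators and 1 of 14 cargo receptor genes. The 8 tether and SNARE, 13 COPII and 20 AP adaptor genes had 0. The genotypes did not overlap for 5 of the 66, beside 9.35% of all genes. Arf5, Arfgap3 and the AP adaptor gene Ap3b1 were lower in MUT, and Tmed3 and the AP adaptor gene Ap3m2 higher. Of 11 genes for ARF GTPases and their regulators, 0 passed, 4 lay above 0 and the median log2 fold change was -0.08. Arf3, an ARF GTPase gene, measured 642, 336 and 627 CPM in MUT, against 2035, 518 and 830.3 CPM in WT, with a log2 fold change of -1.08 (SE 0.46). WT library 1 stood far above the rest and the genotypes overlapped. Arf5, another of these GTPases, measured 10.3, 6.51 and 7.12 CPM in MUT, against 27.0, 26.6 and 14.8 CPM in WT, with no overlap (log2 fold change -1.51, SE 0.87).

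Of 14 tested cargo receptor genes, 0 passed, 6 lay above 0 and the median was -0.05; Tmed6 was too low to be tested. Kdelr3, a receptor that returns proteins with a KDEL tail, measured 77.2, 1.20 and 4.48 CPM in MUT, against 0.57, 0 and 2.82 CPM in WT, so MUT library 1 alone carried its fitted 4.60 (SE 1.86). Tmed9, a p24 family receptor, measured 89.2, 61.9 and 82.9 CPM in MUT, against 179, 70.7 and 150.5 CPM in WT (log2 fold change -0.77, SE 0.44). The 8 genes of the tether and SNAREs that receive COPI vesicles at the endoplasmic reticulum had 0 past the threshold, 4 above 0 and a median of -0.03. Among these, the tether gene Zw10 averaged 28.8 ± 27.5 CPM in MUT and 8.35 ± 5.64 CPM in WT, and the SNARE gene Stx18 20.8 ± 18.6 CPM in MUT and 89.99 ± 144 CPM in WT (SD, n = 3 each). In Stx18, WT library 1 alone held 256 CPM.

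Other vesicle coats were set beside COPI. All 13 COPII genes, whose coat carries cargo out of the endoplasmic reticulum, were tested, with 0 past the threshold, 6 above 0 and a median of -0.06. Sec13, an outer cage gene, averaged 37.2 ± 14.8 CPM in MUT and 66.8 ± 27.1 CPM in WT, and the GTPase gene Sar1a 174 ± 38.9 CPM in MUT and 113 ± 52.5 CPM in WT (SD, n = 3 each). The 20 AP adaptor genes, which encode relatives of the F subcomplex, had 0 past the threshold, 9 above 0 and a median of -0.07. Ap3b1, a subunit of AP-3, averaged 96.4 ± 14.02 CPM in MUT and 140.2 ± 18.6 CPM in WT (SD, n = 3 each), without overlap. Its relative Ap3b2 was low except for 64.4 CPM in WT library 1. The COPI median of -0.25 was the lowest of these lists, and whether it differed from theirs was not tested.

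The genes whose profile over the 6 libraries was most like the mean profile of the COPI members were Pde4b, a cyclic AMP phosphodiesterase gene, Midn, Gspt1, a translation termination factor gene, Zmym2 and Fam120a. Their root mean square differences from that profile were 0.05, 0.07, 0.08, 0.09 and 0.09 on the log2 scale, against a median of 0.85 over 12728 genes with a mean of at least 5 CPM. The members themselves lay farther from their own mean profile, between 0.24 (Arcn1) and 0.60 (Copz1). Pde4b measured 343, 252 and 262 CPM in MUT, against 361, 346 and 310.2 CPM in WT. A mean over 9 genes is smoother than any of them, and likeness to it is a description of these libraries.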

How the data were processed

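RNA was sequenced from 3 MUT and 3 WT libraries, grouped by sample title. The authors deposited raw read counts per Ensembl gene ID, 1 column per library. Per the labels' protocols, column-purified RNA was amplified by Nugen Ovation and made into Nextera XT libraries; amplified reads are not independent molecules. The submitters' processing notes name GRCm38, DESeq2 1.26.0 and STAR 2.4.2a without their roles. How reads were counted, on which annotation and with which strand setting, is not given in the sources used here. No 2 libraries agreed within sampling noise (lowest chi-square per degree of freedom 84.4, between MUT library 3 and WT library 3).

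Symbols were matched for 42462 of 43432 IDs; lengths and coordinates came from GENCODE M21. The test was edgeR 4.0.16 (R 4.3.3) on counts: TMM, filterByExpr (minimum count 10), robust quasi-likelihood F-test, genotype only, MUT over WT, Benjamini-Hochberg adjustment over 17172 genes. For edgeR, the standard error was derived from the test, as the absolute log2 fold change over the square root of F. Intervals use that error and a t quantile. Shares and the summed CPM were compared by two-sided exact permutation over 20 assignments. Alternatives were other scalings (DESeq2 size factors, upper quartile), other filters (none, or a minimum count of 50), DESeq2 1.42.0, limma-voom (3.58.1), other gene lengths, the replicate block and leaving out each library. The fits were tested on simulated data. Members and lists were chosen with earlier results of these data known. Genes outside the members were named by rule: the 2 smallest p in each list and the 5 profiles nearest to the members' mean. Genes that overlap a member or share its sequence, cell type markers and list genes without overlap are named besides, some after their values were seen.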

Additional observations from a re-analysis of the deposited data

How the results depend on the processing

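Calls over all genes depended on the fit: edgeR's 0 became 73 when low counts were not filtered and 116 in DESeq2, and stayed 0 with other scalings, a stricter filter, limma-voom and any 1 library left out. The cause was not tested. In every fit, 0 COPI members were called. The members' median log2 fold change ran from -0.42 to -0.19 with 1 library left out and moved beyond the spread of the libraries without WT replicate 2 alone. Signs of single members turned when 1 library was left out: the log2 fold change ran from -0.42 to 0.14 for Copa, from -0.49 to 0.11 for Copb1, from -0.38 to 0.14 for Copb2 and from -0.29 to 0.029 for Arcn1. That of Copb2 was 0.043 with upper-quartile scaling. The Copz2 share difference ran from -6.40 to 14.96 points. The share differences of Copg2 and of the B subcomplex kept their direction in every alternative run, among them the longest protein-coding transcript, chosen after seeing the data. The summed CPM difference kept its direction under each scaling and with any 1 library left out.

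Same-numbered libraries share an ending in their source names, and the labels do not say what it marks. Correlations of the deviations of same-numbered libraries were 0.10, 0.06 and 0.13. For each of the 6 libraries the highest such correlation was with its own number in the other genotype. Chi-square per degree of freedom was lowest, at 84.4, between the number 3 libraries, but was 257 for number 1 and 202 for number 2. The mitochondrial share was 16.0%, 21.3% and 9.14% in MUT libraries 1, 2 and 3, against 17.1%, 18.9% and 11.1% in WT. These are hints of a shared batch from the data and not the design. The labels give no pairing, so the main tests did not take the numbers as pairs. With the replicate block edgeR called 1 gene and DESeq2 302, no COPI member among them. The members' median was then -0.18 in edgeR. Within same-numbered libraries, MUT lay below WT in 3 of 3 for the summed CPM under each of the 4 scalings, for Copg1 and Copg2 likewise, for Copz2 under all scalings but CPM on total counts, and for the Copg2 share. With TMM, 3 of 9 members did so beside 11.3% of all genes, while MUT lay below WT in 0 of 3 for Cope and 1 of 3 for Copa. The Copz2 share and the B subcomplex share were lower in MUT in 1 of 3. For the Copg2 share the exact sign-flip permutation p was 0.25, the smallest that 3 pairs allow. Each member had at least 413 counts in every library, while 3 libraries a genotype and a median standard error of 1.03 over all genes limit what could be called.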
